A study of Mus musculus with 13 samples.

Results

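The cluster of miR-143 and miR-145 was followed through its 2 leading mature products, mmu-miR-143-3p and mmu-miR-145a-5p (written without the species prefix from here on), which were selected by name, with earlier results of these data known. Both were listed in the table of tumour cell vesicles, with 1164 miRNAs, and in the table of plasma vesicles, with 1354 miRNAs. Of the miRNAs listed, 1066 are in both tables. The study sequenced small RNA of extracellular vesicles to follow tumour wasting (cachexia) in mice. Its 13 libraries comprised 3 of tumour microvesicles (TMVs), which C26 cells, a Balb/C colon adenocarcinoma line, shed during 48 h without serum, 6 of plasma vesicles from Balb/C mice labelled cachectic and killed 14 days after C26 cells were injected under the skin of the back, and 4 of plasma vesicles from Balb/C mice labelled healthy. All vesicles were pelleted by ultracentrifugation. The labels name no age, sex or genetic change, and those of control replicates 2 and 3 each hold 2 numbers of unstated meaning. Nothing states that the libraries came from separate animals or cultures, so p-values measure the spread between libraries.

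MiR-143 and miR-145 are made from neighbouring precursors, and their joint primary transcript is best known from vascular and visceral smooth muscle, where serum response factor and myocardin switch it on. Together the mature miRNAs favour the contractile over the proliferating state of smooth muscle cells, in part by lowering Klf4 and Elk1. Each precursor hairpin can give a mature miRNA from either arm, 5p or 3p. In most tissues miR-143-3p and miR-145a-5p are the arms that load into Argonaute and repress targets, and miR-143-5p and miR-145a-3p are the passenger arms.

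Several results below set miR-145a against other miRNAs whose ratio of 5p to 3p counts differed between libraries, and set miR-143-3p against a pair of near-identical miRNAs. Their mature sequences, from RefSeq on GRCm38.p6, are given 5′ to 3′ with the seed (bases 2 to 8) in capitals. The arms of let-7d and of miR-223 are shown because each pair is cut from 1 hairpin and yet has different seeds, so a change of arm is a change of seed.
let-7d-5p: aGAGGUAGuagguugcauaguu
let-7d-3p: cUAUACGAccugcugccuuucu
miR-223-5p: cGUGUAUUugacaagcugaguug
miR-223-3p: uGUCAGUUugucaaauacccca
MiR-30a-5p and miR-30e-5p are shown because they share a seed and differ at 1 of 22 bases, so their counts are uncertain against each other.
miR-30a-5p: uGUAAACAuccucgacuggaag
miR-30e-5p: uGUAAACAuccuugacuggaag

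In the GENCODE M21 annotation of GRCm38, used here for positions because no source used here names the build of the deposited tables, Mir145a lies on chromosome 18 from 61647825 to 61647894 and Mir143 from 61649196 to 61649258, both on the minus strand. The precursors are 1301 bases apart. Both lie downstream of the GENCODE model of the long non-coding RNA gene Carmn, which runs from 61649625 to 61665537 on the same strand, and inside the longer RefSeq model of Carmn, from 61645878 to 61665538. Mir145b, a separate gene on the same chromosome from 69022199 to 69022273, is listed in the TMV table, where it had 0 counts in all 3 libraries.

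The TMV libraries held 112357 to 170571 counts and the plasma libraries 7962 to 131385, from 9828 to 76376 in C26-bearing mice and from 7962 to 131385 in controls. The plasma libraries fell into 2 parts that cross the groups. In 5 libraries, called miR-5119-rich here, miR-5119 took over 20% of all counts: replicates 1 to 4 of the C26-bearing group and replicate 4 of the controls. In the miR-5119-poor libraries, which are C26-bearing 5 and 6 and control 1 to 3, it took at most 2.55%. Each library's description ends in the letter S and a number, whose meaning the labels do not state. In the rich plasma libraries these numbers run from 18 to 22 without a gap. The TMV libraries carry 22 to 24, which C26-bearing replicates 4 to 6 carry as well. The summed share of the listed red cell miRNAs moved with the parts. It was 3.38% to 8.12% of counts in the rich libraries and 19.5% to 52.7% in the poor ones. The sum followed its most abundant member, miR-486a-5p. As TMM-scaled CPM (depth-scaled counts after edgeR's adjustment between libraries), miR-486a-5p had 17047 to 41708 in rich libraries and 147128 to 579105 in poor ones. For miR-451a the parts overlapped, at 17583 to 48997 and 14452 to 41569. They overlapped for miR-144-3p and miR-144-5p as well.

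The 3p arm of miR-143 was counted in every library. In plasma it ranked 7th to 40th among all miRNAs in C26-bearing libraries and 7th to 19th in controls, on as few as 53 counts. In TMVs miR-143-3p held 3.37%, 4.49% and 4.78% of the counts in replicates 1 to 3, which placed it 9th, 6th and 4th among all miRNAs. In C26-bearing plasma it held 2.00%, 2.59%, 0.696%, 0.611%, 1.40% and 0.351% in replicates 1 to 6. Control plasma had shares of 2.22%, 1.19%, 1.12% and 0.666% in replicates 1 to 4. The mean share was 4.21% ± 0.745 in TMVs (SD, n = 3), 1.27% ± 0.883 in C26-bearing plasma (n = 6) and 1.30% ± 0.658 in control plasma (n = 4). All 3 TMV libraries lay above all 10 plasma libraries, and the plasma groups overlapped. Without miR-5119 in the totals, C26-bearing replicate 2 held 4.21% and then lay within the TMV range. The 2 materials were prepared and tabulated separately, so a difference in share between them cannot be told apart from one between tables. The 95% Wilson interval of a single library was narrow beside this spread, 2.48% to 2.71% in C26-bearing replicate 2 and 0.509% to 0.870% in control replicate 4, the shallowest library. Such intervals cover counting error only.

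MiR-145a-5p, the partner arm usually named with miR-143-3p, was rare. It had 14, 22 and 24 counts in TMV replicates 1 to 3. It had 9, 34, 10, 1, 1 and 0 counts in C26-bearing replicates 1 to 6. Control replicates 1 to 4 had 2, 0, 0 and 4 counts. As shares these were 0.0144% ± 0.00502 in TMVs (SD, n = 3), 0.0200% ± 0.0205 in C26-bearing plasma (n = 6) and 0.0130% ± 0.0249 in control plasma (n = 4), and neighbours in this order did not differ beyond their spread. Taken as up to 3 counts, the 0 in C26-bearing replicate 6 allows a share of up to 0.00931%, and those in control replicates 2 and 3 up to 0.00538% and 0.00228%. The figure draws these libraries at the shares that 3 counts allow. Their upper 95% Wilson limits, which are not plotted, are 0.0119% in C26-bearing replicate 6 and 0.00689% and 0.00292% in these controls. In a bulk vesicle sample, fewer vesicles from 1 kind of cell and less of the miRNA per vesicle cannot be told apart.

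**Figure D1:**
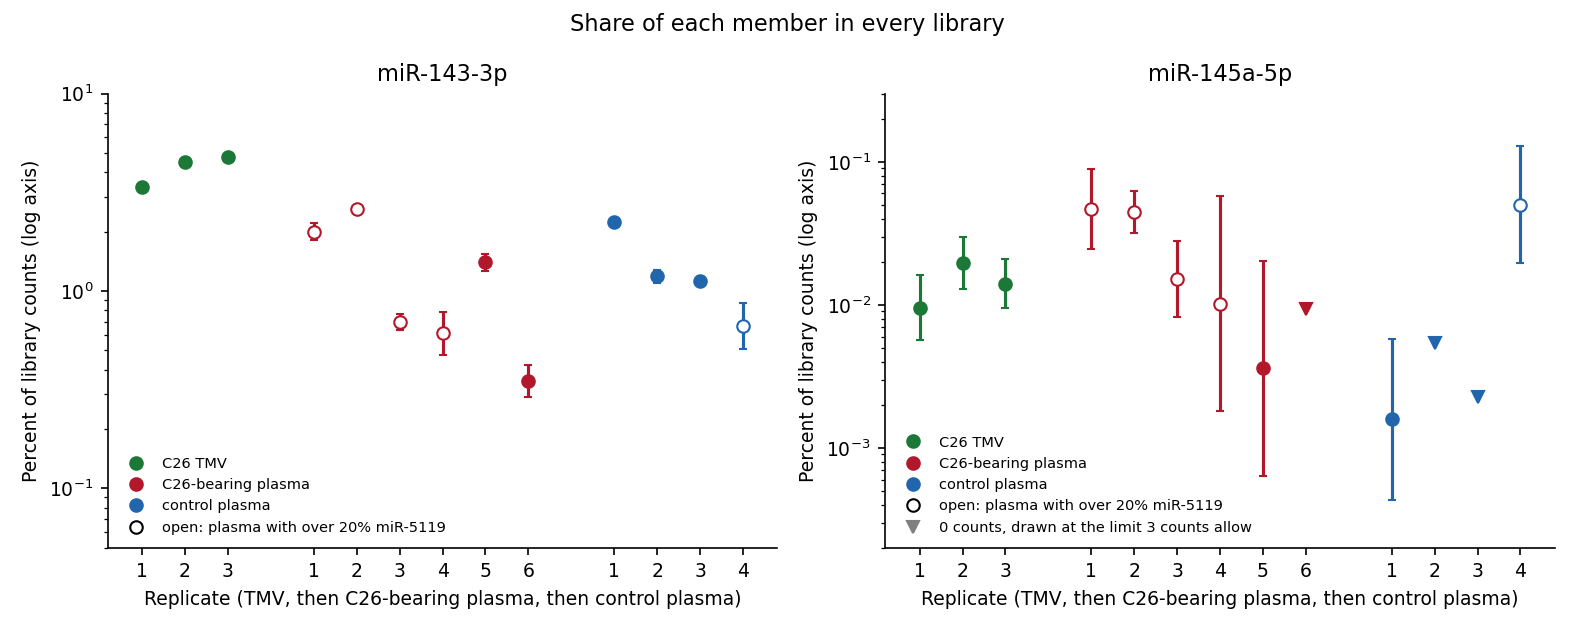
Share of library counts held by miR-143-3p and miR-145a-5p on log axes for TMVs, C26-bearing plasma and control plasma. Each library is 1 point with its 95% Wilson interval. Libraries with 0 counts are triangles at the share that 3 counts allow, with no interval. MiR-143-3p lies between 0.351% and 4.78% everywhere. The miR-145a-5p points are higher in the open miR-5119-rich plasma libraries than in the filled plasma ones, and some of the intervals overlap.

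The other arms completed the picture of the cluster. MiR-143-5p, the passenger arm, had 8, 7 and 8 counts in the TMV libraries against 4934, 5045 and 8147 of miR-143-3p, and in plasma it had 1 count in C26-bearing replicate 2, 1 in control replicate 3 and 0 in the other 8 libraries. MiR-145a behaved differently. Its 3p arm had 33, 30 and 34 counts in TMVs, more than the 5p arm in all 3 libraries. In C26-bearing plasma the 3p arm had 2, 10, 2, 1, 4 and 7 counts. In control plasma it had 61, 18, 26 and 0 counts. The 3p arm was thus the more abundant miR-145a product in TMVs, in replicates 5 and 6 of the C26-bearing group and in the first 3 controls. The 5p arm was the more abundant one in replicates 1 to 3 of the C26-bearing group and in control replicate 4, and C26-bearing replicate 4 had 1 count of each.

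These are the same libraries that miR-5119 separates. Summed over libraries, miR-145a gave 58 counts of 5p and 15 of 3p in the 5 rich libraries, and 3 of 5p and 116 of 3p in the 5 poor ones. The 5p arm made up 81.8%, 77.3%, 83.3%, 50% and 100% of miR-145a counts in the rich libraries, C26-bearing replicates 1 to 4 and control replicate 4 in turn. Among the poor libraries it made up 20.0% and 0% in replicates 5 and 6 of the C26-bearing group and 3.17%, 0% and 0% in the first 3 controls. The parts did not overlap, although the exact 95% intervals were wide where counts were few, 1.26% to 98.7% in C26-bearing replicate 4 and 0.505% to 71.6% in C26-bearing replicate 5. TMVs stood between, with 29.8%, 42.3% and 41.4%. The share of miR-145a-5p, without miR-5119 in the totals, was 0.0173% to 0.0932% in the rich libraries and at most 0.00369% in the poor ones. The lowest rich value, C26-bearing replicate 4, and the highest poor value, C26-bearing replicate 5, each rest on 1 count. As shares of all counts, their 95% Wilson intervals overlap, at 0.00180% to 0.0576% and 0.000634% to 0.0203%. Of 347 plasma miRNAs with at least 10 summed counts, 7.49% lay higher in every rich library than in every poor one and 5.19% lower, so the absence of overlap was shared by other miRNAs. The part that the source of the miR-5119 counts or the depth played in this was not tested.

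**Figure D2:**
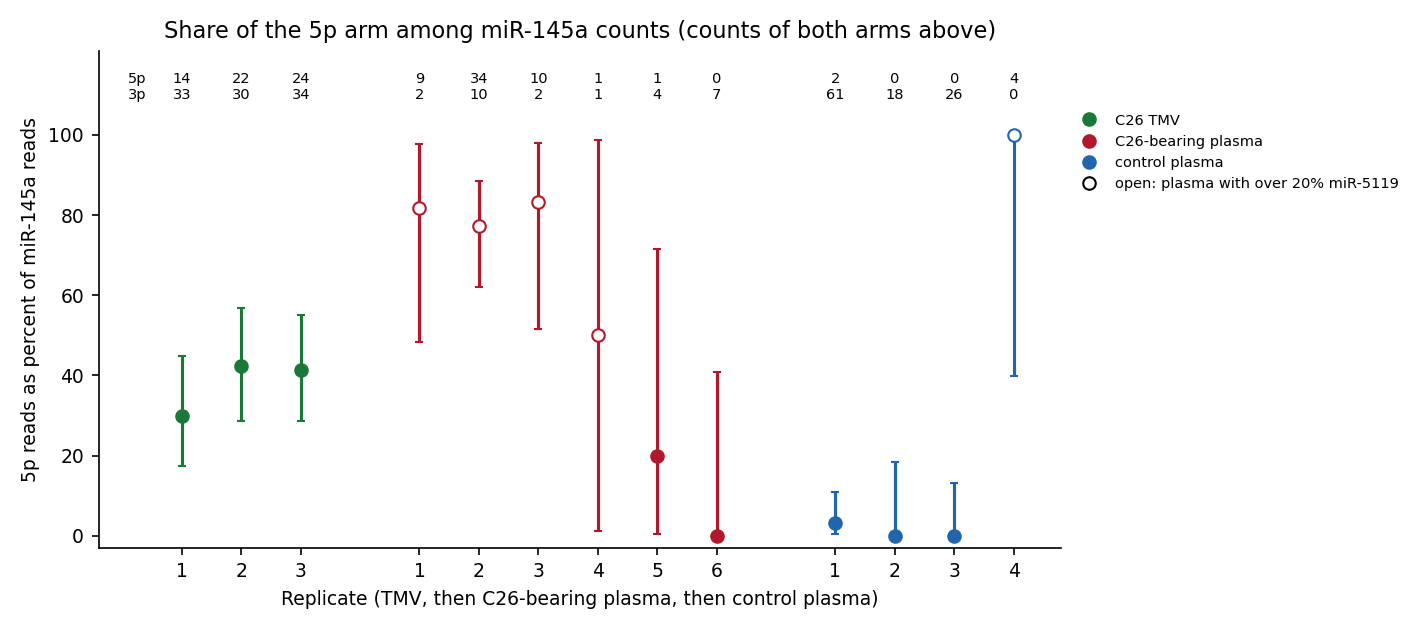
Percent of miR-145a counts on the 5p arm in every library, with exact 95% binomial intervals and the counts of both arms printed above. The open miR-5119-rich libraries lie at 50% or above, the filled plasma libraries at 20.0% or below and TMVs between 29.8% and 42.3%.

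Among miRNA hairpins with both arms counted, miR-145a had the largest mean difference in arm ratio between the parts. The log2 ratio of 5p to 3p, with 0.5 added to each count, averaged 1.78 in the rich libraries and -4.21 in the poor ones, a difference of 5.99. The 5p arm had 0 counts in C26-bearing replicate 6 and control replicates 2 and 3, and the 3p arm 0 in control replicate 4. The size of the difference thus depends on the added 0.5, and no other value was tried for it. Next by size was miR-1943, at -5.38 on 10 counts of 5p, whose parts overlapped. Of 52 pairs with at least 10 summed counts on each arm, 9.62% had a higher ratio in every rich library and 3.85% a lower one. Named after their values were seen, the others with a higher ratio were let-7d (difference 4.35), miR-151 (3.62), miR-1843a (2.49) and miR-30a (0.86). Those with a lower ratio were miR-223 (-4.58) and miR-215 (-2.98). On average miR-151, miR-1843a, miR-30a and miR-215 kept the same leading arm in both parts, so only their ratio shifted. For let-7d the sequences above show what changed place: the ratio averaged 1.51 in the rich libraries, in favour of let-7d-5p, and -2.84 in the poor ones, in favour of let-7d-3p. MiR-223, a miRNA of myeloid cells and platelets, had the opposite direction: -1.76 in the rich libraries, in favour of the 3p arm, and 2.82 in the poor ones, in favour of the 5p arm. The parts were defined by miR-5119 and not by the study, so these are descriptions with no test.

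**Figure D3:**
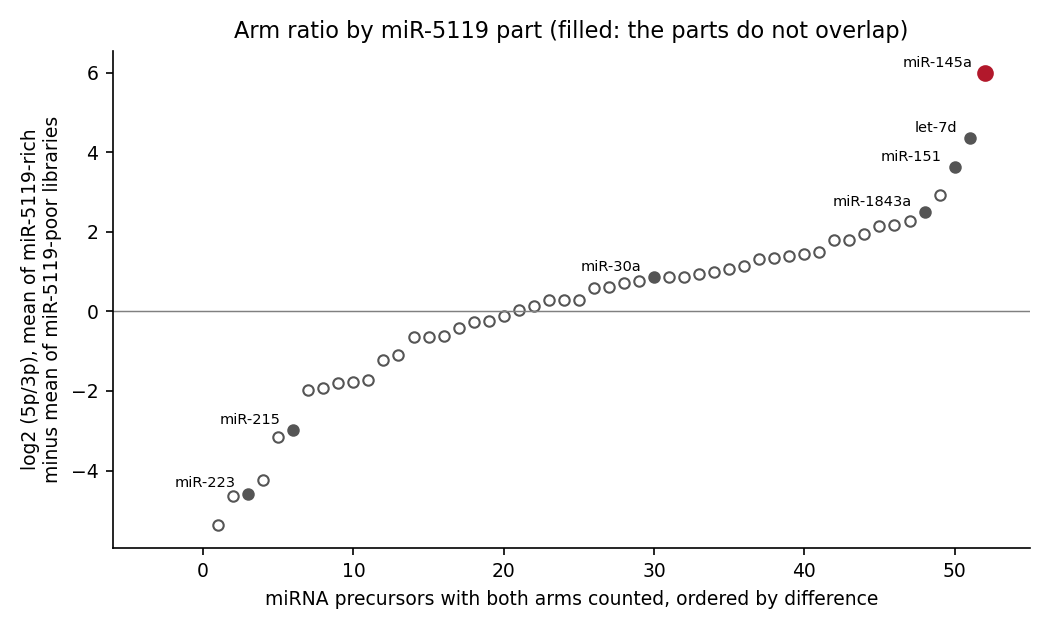
Difference in the mean log2 ratio of 5p to 3p counts, miR-5119-rich minus miR-5119-poor plasma libraries, for 52 hairpins in order of that difference. Filled points mark hairpins whose parts do not overlap. MiR-145a stands at the top with 5.99, a value that depends on the 0.5 added to counts of 0.

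The ratio of miR-143-3p to miR-145a-5p needs no library total and compares 1 arm of each hairpin within a library. It was 352, 229 and 339 in TMV replicates 1 to 3. In C26-bearing replicates 1 to 5 it was 42.8, 58.2, 46.0, 60.0 and 389, and at least 37.7 in replicate 6, where the 0 counts of miR-145a-5p are taken as 3. Among the controls it was 1400.5 in replicate 1, at least 221 and at least 492 in replicates 2 and 3, and 13.25 in replicate 4. The lowest ratios all belonged to rich libraries, apart from the lower bound of C26-bearing replicate 6. On the log2 scale with 0.5 added to each count, the ratio averaged 6.30 ± 1.27 in C26-bearing plasma (SD, n = 6) and 8.90 ± 3.60 in control plasma (n = 4). The difference of -2.60 (95% interval -5.61 to 1.77) did not pass an exact permutation test over 210 splits (two-sided p = 0.105, adjusted over 3 plasma measures 0.314). It was -2.75 within the poor libraries and 1.92, the opposite direction, within the rich ones, which hold 1 control. Without control replicate 4 it was -4.37 (exact permutation p = 0.0238, adjusted 0.0714). That p is the smallest that these numbers of libraries allow. Beside the share measures (exact permutation p = 0.933 and 0.562 over all libraries), its adjusted value could not be lower. This test thus could not pass after adjustment, and no conclusion is drawn from it. The controls then left are all poor while most C26-bearing libraries are rich, so group and part are mixed there.

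**Figure D4:**
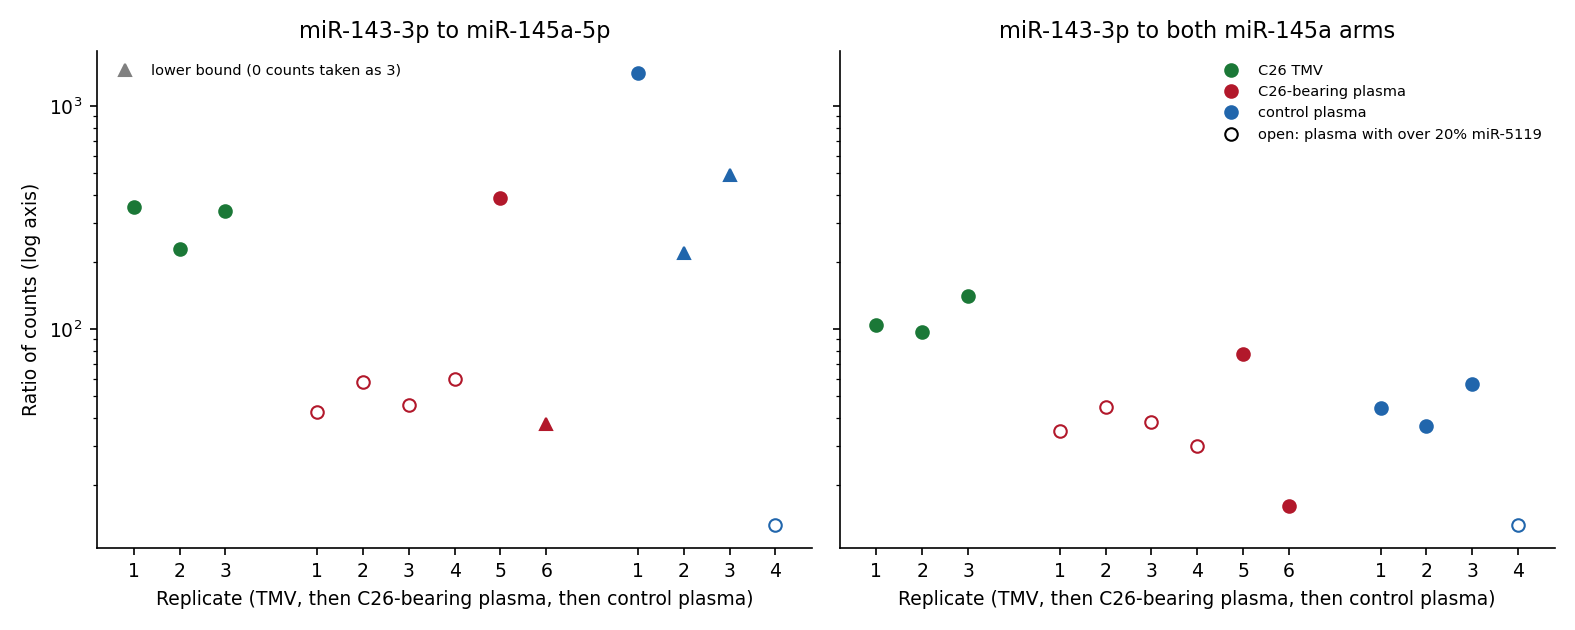
Ratio of miR-143-3p counts to miR-145a-5p counts (left) and to the sum of both miR-145a arms (right) in every library, on a shared log axis. With both arms the 10 plasma libraries draw together between 13.25 and 77.8, and the 3 TMV libraries lie above them from 97.0 to 140.5.

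With both miR-145a arms in the denominator, a measure chosen after seeing the data, the plasma parts overlapped. MiR-143-3p then exceeded miR-145a 105-fold, 97.0-fold and 140.5-fold in TMV replicates 1 to 3. In C26-bearing replicates 1 to 6 the ratio was 35, 45.0, 38.3, 30.0, 77.8 and 16.1. The controls had 44.5, 36.8, 56.8 and 13.25. All 3 TMV libraries lay above all 10 plasma libraries, while the plasma groups overlapped. On the log2 scale TMVs exceeded plasma by 1.76 (95% interval 0.88 to 2.90), with an exact permutation p of 0.00699, the smallest that 286 splits allow, and 0.0140 adjusted over 2 comparisons. Against the 5 poor libraries alone the difference was 1.504 (exact permutation p = 0.0357, adjusted 0.0714). With 1 TMV library left out it ran from 1.60 to 1.87 (exact permutation p = 0.0303, adjusted 0.0606). Both p-values are the smallest that these numbers of libraries allow. Each was adjusted together with the TMV minus plasma ratio of miR-145a 5p to 3p over all libraries (exact permutation p = 0.797). Beside that p-value neither could pass 0.05 after adjustment. Vesicle source, table and library preparation cannot be told apart in this comparison. C26-bearing minus control plasma was 0.07 (95% interval -1.22 to 1.44, exact permutation p = 0.895), which leaves room for a difference of over 2-fold either way. With the 5p arm alone, TMVs differed from all plasma by 0.86 on the log2 scale (95% interval -2.72 to 3.69, exact permutation p = 0.587, adjusted 0.8) and from control plasma by -0.70 (exact permutation p = 0.8, where 35 splits allow no p below 0.0571).

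The study also set plasma vesicles of tumour-bearing mice against those of controls, and neither member passed edgeR's test there. Levels of miR-143-3p as TMM-scaled CPM (depth-scaled counts after edgeR's adjustment between libraries) were 20638, 24809, 10930, 6104, 12275 and 3954 in C26-bearing replicates 1 to 6. Control levels were 24614, 10203, 8335 and 9158. The groups overlapped, with C26-bearing replicate 2 highest and replicate 6 lowest of all 10. The means were 13118 CPM with C26 tumours and 13077 CPM in controls. The log2 fold change was 0.00 (SE 0.55, 95% interval -1.21 to 1.21), with an adjusted p of 0.995 by edgeR's quasi-likelihood test with Benjamini-Hochberg adjustment over 130 miRNAs. The interval holds changes of slightly over 2-fold in either direction. The log2 fold change was -0.79 (SE 0.66) within the poor libraries and 0.76 (SE 0.94) within the rich ones, and the difference between these was not tested. With edgeR 0 of the 130 miRNAs passed (0%), against 15 at an unadjusted p under 0.05, 3.08% with DESeq2 and 13.1% with limma voom, and miR-143-3p was not called by these tools.

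MiR-145a-5p had too few counts to pass the filter on low values and entered a fit without that filter. There its log2 fold change was 1.05 (SE 1.35, 95% interval -1.59 to 3.69), and the edgeR adjusted p over 955 miRNAs was 0.632. The median over all 955 was 0.88, so miR-145a-5p lay near the middle of the unfiltered table, of which 0.419% was called. With each library left out in turn the value ran from 0.39 without C26-bearing replicate 2 to 4.57 without control replicate 4 (edgeR adjusted p = 0.160), the rich library with 4 of the 6 control counts. The edgeR fit with a term for the parts gave -0.26. Limma voom with quality weights gave 3.63 and an adjusted p of 0.0155, in a fit that called 53.7% of the 955 miRNAs. The difference in share of counts was -0.0263 percentage points for miR-143-3p (95% interval -1.19 to 1.37, exact permutation p = 0.933) and 0.00705 for miR-145a-5p (-0.0241 to 0.0448, exact permutation p = 0.562), and adjusted over 3 plasma measures these were 0.933 and 0.843.

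**Figure D5:**
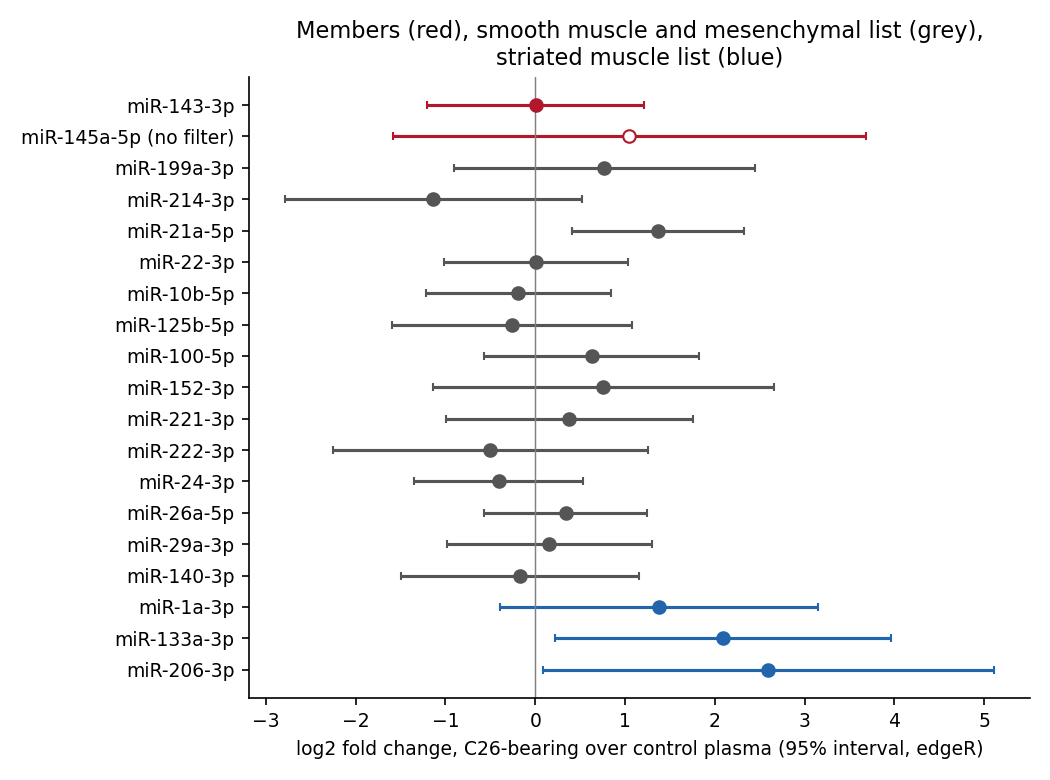
Log2 fold change of C26-bearing over control plasma with 95% intervals from edgeR, for both members, 14 listed smooth muscle and mesenchymal miRNAs and 3 listed striated muscle miRNAs. MiR-143-3p sits at 0.00, and none of the 130 filtered miRNAs passed an adjusted p of 0.05. The open point of miR-145a-5p comes from the fit without a filter.

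Other miRNAs known from smooth muscle and mesenchymal cells were set beside the pair. Of 17 listed, 14 were tested, 0 were called higher and 0 lower with edgeR, 8 had a log2 fold change above 0 and 6 below, and their median was 0.08, beside 0.01 over all 130. The list held 26.9% ± 2.41 of counts in TMVs (SD, n = 3), 6.24% ± 1.71 with C26 tumours (n = 6) and 5.33% ± 1.52 in controls (n = 4). The most abundant in plasma was miR-21a-5p, which is induced in proliferating smooth muscle and in many tumours, with a log2 fold change of 1.37 (SE 0.44, edgeR adjusted p = 0.304). MiR-26a-5p, miR-10b-5p, miR-24-3p, miR-140-3p and miR-22-3p had 0.34 (SE 0.42), -0.19 (SE 0.47), -0.41 (SE 0.43), -0.17 (SE 0.60) and 0.01 (SE 0.47). Of the striated muscle miRNAs, which mark heart and skeletal muscle, 3 of 7 were tested, 0 were called in either direction with edgeR, and their median was 2.09. Their summed share was 1.77% to 14.9% with C26 tumours and 0.742% to 4.02% in controls.

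Marker lists of other cells that plasma vesicles could come from were measured beside the members. List shares here, like those of the muscle lists above, are of all counts with miR-5119 included. MiR-5119 took over 20% in C26-bearing replicates 1 to 4 and control replicate 4, so the parts fall unevenly on the groups. Endothelial miRNAs held 0.428% to 1.54% of counts with C26 tumours and 0.656% to 1.19% in controls (2 of 3 tested, median log2 fold change 1.80). The 2 tested are the arms of 1 hairpin and lay apart, miR-126a-3p at 0.37 (SE 0.37) and the rarer miR-126a-5p at 3.23 (SE 1.38). Red cell miRNAs held 3.38% to 52.7% with tumours and 5.88% to 31.3% in controls (4 of 5 tested, median -0.15). Platelet and leukocyte miRNAs held 0.332% to 0.793% with tumours and 0.327% to 0.636% in controls (6 of 6 tested, median 0.47), epithelial miRNAs 0.165% to 0.758% with tumours and 0.239% to 0.926% in controls (4 of 8 tested, median -0.78), and the liver miRNA miR-122, with both arms, 0.510% to 8.20% with tumours and 5.87% to 25.5% in controls (1 of 2 tested, -1.92). With edgeR 0 of these were called in either direction. In TMVs the epithelial list held 0.00979% to 0.0123%, and 4 of its 8 members, miR-200a-3p and miR-205-5p among them, had 0 counts in all 3 libraries. Vesicles of the colon carcinoma line were thus almost without these epithelial miRNAs, and striated muscle miRNAs held 0.205%, 1.09% and 0.168%. The cell source of the pair in either material was not tested, and it is called here by its precursors.

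The miRNAs whose levels ran most nearly parallel to miR-143-3p were found from the SD of the log2 ratio to it over the 10 plasma libraries, among those that passed the filter. The closest was miR-29a-3p, a repressor of collagen genes, with an SD of 0.54. MiR-30e-5p (0.56) and miR-30a-5p (0.62), whose near-identical sequences are given above, miR-27b-3p (0.64) and miR-378a-3p (0.69) followed, and the median over all candidates was 1.43. Their log2 fold changes of C26-bearing over control plasma lay between -0.03 for miR-378a-3p (SE 0.39) and 0.43 for miR-30a-5p (SE 0.42). MiR-145a-5p, the neighbour in the genome, did not pass the filter and was added to the candidates, where it had an SD of 2.65 and ranked 116th of 130 with itself included. Its counts in plasma ran from 0 to 34, so counting error is large in that SD. With both miR-145a arms summed, a measure chosen after seeing the data, the SD over the 10 plasma libraries was 0.80. For miR-145a-5p itself the closest were miR-5118, miR-223-3p, miR-23b-3p, miR-23a-3p and miR-2861, with SDs of 1.24 to 1.68, where the median was 2.84 and counting error is large. The SD of the log2 ratio of miR-143-3p to miR-145a-5p was 0.34 in TMVs (n = 3), 1.27 in C26-bearing plasma (n = 6) and 3.60 in control plasma (n = 4), and by part 0.88 in the rich and 1.60 in the poor plasma libraries (n = 5 each).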

How the data were processed

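The authors deposited raw counts per mature miRNA in 2 tables, with no normalization, as the values show: whole numbers with a different total in each library. Sequencing was single-end at 75 bp on NEBNext small RNA libraries, per the labels' protocols. Base calling and trimming tools were bcl2fastq and cutadapt 1.10, per the submitters' processing notes. Which aligner and counter were used, and how near-identical miRNAs were shared, was not given in the sources used here. Plasma counts were filtered with filterByExpr (minimum count 10), scaled with TMM and tested with edgeR 4.0.16 (robust quasi-likelihood) in R 4.3.3, with DESeq2 1.42.0 and limma 3.58.1 voom as alternatives. On data simulated for this comparison (130 miRNAs, 20 runs), the test called 2.81% of 2-fold changes, 28% of 4-fold changes and 83.4% of 16-fold ones, and 3.06% of calls were false. The simulation gave all miRNAs the same relative spread between libraries and did not include the miR-5119 parts, so these rates may not hold for the real libraries. Shares and ratios were compared with exact permutation tests in scipy 1.17.1, and intervals invert these tests. Replicate numbers were not treated as pairs. No 2 libraries had identical counts. The named miRNAs are the members, the other arms, the 5 most like each member and up to 6 per list. The members and lists were chosen with earlier results of these data known. MiR-145a-5p failed the planned filter and was fitted without it.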

Additional observations from a re-analysis of the deposited data

Results flagged for a closer look

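In 12 groups of values screened for a library far from the rest, where chance flags about 1 in 20, 2 were found, both from control replicate 4. Its miR-145a-5p share of 0.0502% stood far above those of the other 3 controls, which were at most 0.00159%. Its log2 ratio of miR-145a 5p to 3p counts was 3.17, against -4.62, -5.21 and -5.73 in control replicates 1 to 3. Both rest on 4 counts of 5p and 0 of 3p in the shallowest library, the only rich library among the controls.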

How the results depend on the processing

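Neither member passed an adjusted p of 0.05 in the plasma comparison under any alternative with edgeR or DESeq2, and voom alone called miR-145a-5p (log2 fold change 3.63). The log2 fold change of miR-143-3p, 0.00 as reported, was -0.15 without a filter, -0.40 without the 2 controls with 2 numbers, -0.0927 with miR-5119 out of the table, -0.26 with a term for the parts, -0.79 in poor libraries alone and -0.26 to 0.43 with each library left out. RLE scaling moved the median of the 130 miRNAs to 0.19 and miR-143-3p to 0.20. That of miR-145a-5p was -0.26 with the part term, -0.46 in rich libraries alone and 4.77 without libraries under 10000 counts. The difference in miR-143-3p share turned positive in rich libraries (0.808 percentage points), with a replicate block (0.174) and without miR-5119 in totals (0.459), and ran from -0.290 to 0.281 with each library left out. That of miR-145a-5p turned negative in rich libraries (-0.0211), without the 2 controls (-0.00590) and with both arms (-0.00594). The C26-bearing minus control log2 ratio to miR-145a-5p was 1.92 in rich libraries and 0.0686 with both arms. TMV minus all plasma was -1.38 against poor libraries and 1.76 with both arms, and TMV minus control plasma 0.51 with zeros set to 3, 1.80 with both arms and -2.48 to 0.17 with each library left out. The C26-bearing minus control log2 ratio of miR-145a 5p to 3p, not a planned measure, was 3.13 over all libraries (exact permutation p = 0.171) and -1.74 in rich libraries. It was 5.22 without control replicate 4 (exact permutation p = 0.0238, adjusted 0.0476), the smallest p that these numbers of libraries allow. That library was left out although flagged above on this same ratio. The controls then left are all poor while most C26-bearing libraries are rich, so group and part are mixed there. The TMV minus plasma arm ratio, 0.50 over all libraries, was 3.50 against poor libraries alone (exact permutation p = 0.0357). The C26-bearing minus control ratio to both arms was -0.31 without shallow libraries, -0.44 in poor libraries and -0.41 to 0.34 with each library left out. In each case the cause was not tested. The count of called miRNAs, 0 as reported, was 4 without a filter, 4 with DESeq2, 17 with voom, 2 with the part term, 1 in rich libraries alone and 0 to 1 with each library left out. The replicate numbers are not known to pair libraries (deviations of same-numbered plasma libraries correlated at -0.37, -0.29, -0.30 and 0.16), and with a block miR-145a-5p had 3.88 (edgeR adjusted p = 0.413), miR-143-3p 0.21 and the plasma ratio -3.41. Both miR-145a arms together had 2 to 63 counts per plasma library, which limits the precision of every ratio to them.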
